A study of Mus musculus with 8 samples.

Results

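Caveolae are small flask-shaped pits of the plasma membrane that carry cargo across endothelial cells. Transcripts of 10 genes of the caveolar route and of its brake at the blood–brain barrier (BBB) were followed in brain endothelial cells (BECs) after experimental subarachnoid haemorrhage (SAH). The genes were Mfsd2a, the caveolins Cav1 and Cav2, the cavins Cavin1, Cavin2 and Cavin3, the neck proteins Ehd2, Ehd4 and Pacsin2, and Plvap. A gene was represented by every probe set whose only annotated symbol was that gene, which gave 1 probe set for each of the 10 genes, of 41345 probe sets on the array and 23521 with a single symbol. RNA came from CD45-depleted, CD31-selected cells of male FVB/NJ mice aged 12 weeks, from 4 mice with SAH and 4 sham mice, with 1 Affymetrix array for each mouse. SAH mice had received 80 μL of blood by prechiasmatic injection 24 h earlier, whereas in sham mice the needle was placed and no blood was given. Only the left hemisphere was used, the meninges were removed, each sample was 1 mouse without pooling, and the RNA was amplified before hybridisation. All values below are log2 intensities, in which a step of 1 is a doubling, and log2 changes subtract the Sham average from the SAH average.

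In peripheral capillaries caveolae are abundant, whereas the endothelium of the BBB holds few of them and moves little cargo in vesicles. Caveolin 1 builds the curved membrane of the pit together with caveolin 2, and the cavins form a coat on its inner face. EHD proteins and pacsin 2 shape the neck of the pit. MFSD2A carries lysophospholipids that contain docosahexaenoic acid into the brain, and in mice its loss is known to increase caveolar transcytosis. PLVAP forms the diaphragms of fenestrae and caveolae and is known as a marker of leaky endothelium.

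After SAH the transcripts of Mfsd2a and of both caveolins were lower together, at 51.9% to 60.9% of their sham levels. The cavins split: Cavin2 was lower, Cavin3 was higher, and Cavin1 did not pass the test. Ehd4 was higher, while the changes of Ehd2, Pacsin2 and Plvap did not pass. Thus 4 of the 10 members were lower and 2 were higher in the moderated test of limma (adjusted p under 0.05), against 1.28% of the 25341 probe sets with a gene symbol called lower and 1.90% called higher. Many of those probe sets were dim, whereas every member except Plvap averaged above log2 6. Of the 6909 probe sets above log2 6, limma called 356 lower and 498 higher, which are larger shares, with the same 4 lower and 2 higher members. The median log2 change of the members was -0.15, with a range of -0.95 to 0.79, and that over all probe sets tested was -0.015. The methods' t-test, recomputed here with pooled variance, called 86 of the 25341 probe sets and none of the 10 members. In it 6 members, those called by limma, had an unadjusted p under 0.05, with adjusted p of 0.0585 to 0.234 after Benjamini-Hochberg. The paper reported many more significant genes over a different set of probe sets, so its count was not reproduced here. It also reported decreased Mfsd2a mRNA by PCR. With limma over all 41345 probe sets, the calls of Cavin2, Cavin3 and Ehd4 were lost (adjusted p of 0.105 to 0.154). Groups without overlap, with SAH below, were found for 4.47% of all probe sets tested, and with SAH above for 4.51%. The array cannot tell apart fewer cells of a type in the suspension and less RNA per cell.

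**Figure D1:**
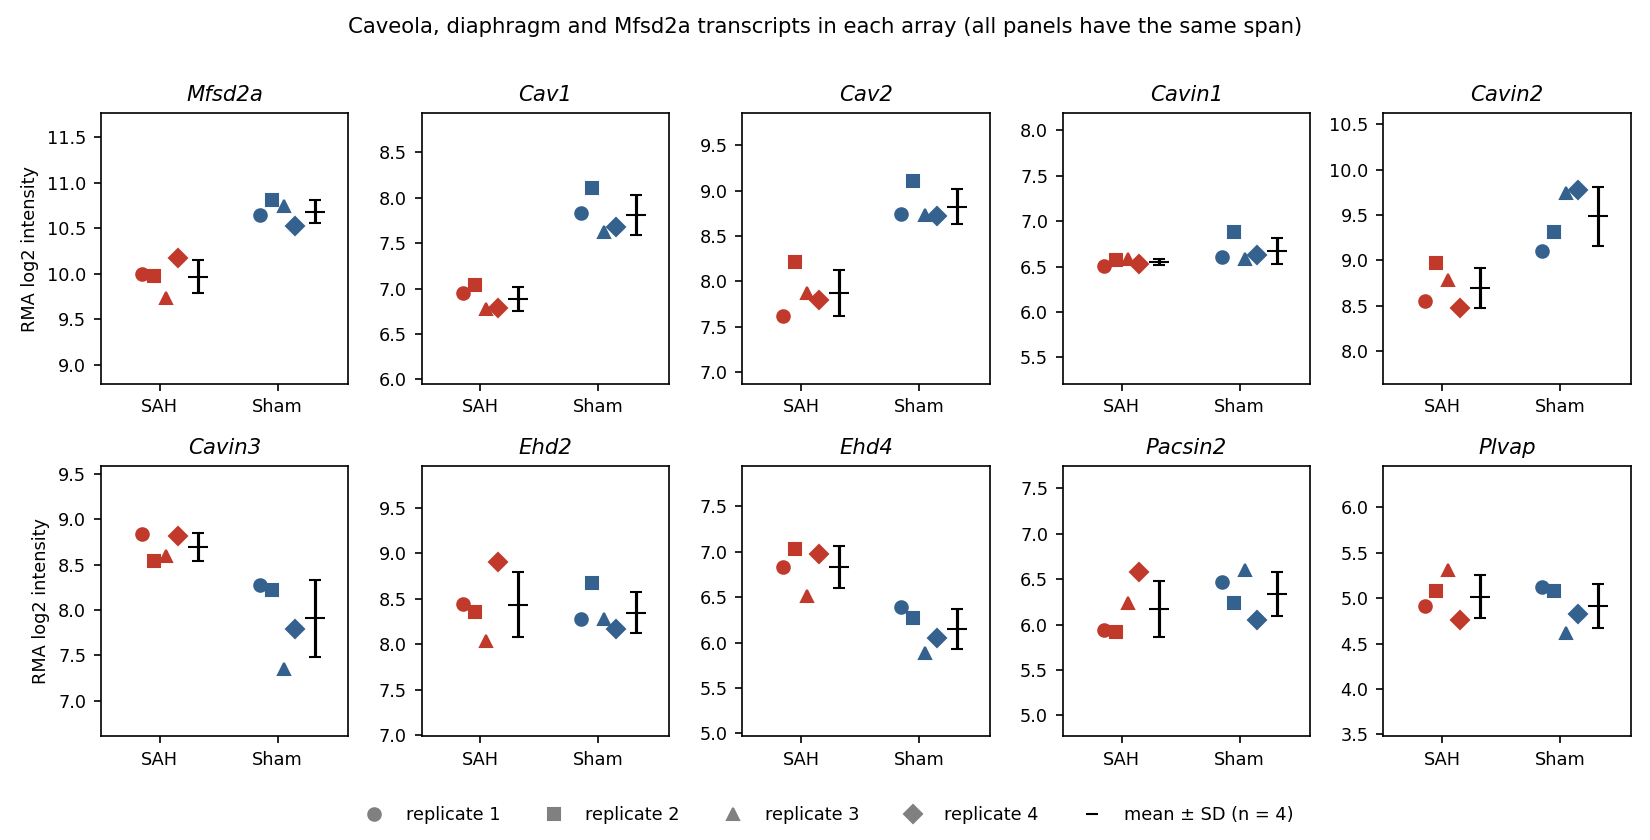
Log2 intensity (vertical axes, equal in span but not in level) of the 10 transcripts in each array, with SAH in red left of Sham in blue. Marker shapes give the replicate and bars the mean ± SD (n = 4). All SAH points of Mfsd2a, Cav1, Cav2 and Cavin2 lie below all Sham points and those of Cavin3 and Ehd4 above, whereas the points of Ehd2, Pacsin2 and Plvap overlap.

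Cav1, Cav2 and Mfsd2a had the most alike courses over the 8 arrays among the transcripts that were lower, so the sequences around their starts are shown. Each runs 5′ to 3′ on the gene's strand over 250 bases before and 50 after an annotated start, from RefSeq (GRCm38.p6). Capitals mark a TCF/LEF motif (CTTTGA) or a GC box (GGGCGG) on either strand, which appears as the reverse complement where it lies on the other strand.
Cav2 (chr6:17280935-17281234, plus strand): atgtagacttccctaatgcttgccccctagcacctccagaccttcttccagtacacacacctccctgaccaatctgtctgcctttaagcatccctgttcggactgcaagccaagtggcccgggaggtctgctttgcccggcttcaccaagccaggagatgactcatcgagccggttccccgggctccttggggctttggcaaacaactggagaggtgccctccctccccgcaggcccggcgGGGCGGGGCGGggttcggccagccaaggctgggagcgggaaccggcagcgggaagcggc
Cav1, upstream start (chr6:17306085-17306384, plus strand): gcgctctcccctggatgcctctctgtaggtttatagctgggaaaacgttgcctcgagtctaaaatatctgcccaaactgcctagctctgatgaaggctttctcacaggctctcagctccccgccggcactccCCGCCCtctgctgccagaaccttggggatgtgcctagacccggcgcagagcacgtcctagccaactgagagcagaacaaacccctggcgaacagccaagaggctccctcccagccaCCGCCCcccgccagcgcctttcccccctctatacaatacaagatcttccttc
Mfsd2a (chr4:122961139-122961438, minus strand): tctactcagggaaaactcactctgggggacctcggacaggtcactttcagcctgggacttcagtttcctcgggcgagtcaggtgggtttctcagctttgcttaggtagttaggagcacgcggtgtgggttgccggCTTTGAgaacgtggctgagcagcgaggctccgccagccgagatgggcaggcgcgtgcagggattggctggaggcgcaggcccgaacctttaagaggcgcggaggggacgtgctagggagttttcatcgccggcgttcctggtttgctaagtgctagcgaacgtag
The Cav2 window held 2 overlapping GC boxes, and the upstream Cav1 window held 2, while the window of the other Cav1 start (chr6:17307390-17307689) held none. The Mfsd2a window held no GC box and 1 TCF/LEF motif, the core that transcription factors of Wnt signalling bind. A TCF/LEF motif occurred in 16% and a GC box in 35.7% of the 32851 promoter windows of the table. Over the 8 members that matched the table, with 12 windows, 1 window held a TCF/LEF motif and 7 a GC box, of which 2 are nearly identical windows of Cavin1. None of the 12 held the forkhead motif TGTTTAC, the ETS motif CCGGAA or the E-box CACGTG, which occurred in 3.65%, 14.9% and 7.15% of all windows. These matches describe letters and not binding. Cavin3 and Plvap were not matched. Cav2 and Cav1 are neighbours on chromosome 6 in the same orientation, with no other annotated gene start between them.

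The question asked first was whether the lipid transporter that restrains transcytosis changed. Mfsd2a read 9.99, 9.98, 9.74 and 10.17 in SAH replicates 1 to 4, against 10.64, 10.82, 10.75 and 10.53 in Sham replicates 1 to 4. Every SAH array lay below every Sham array. The means were 9.97 ± 0.18 after SAH and 10.68 ± 0.13 in Sham (SD, n = 4 each), a log2 change of -0.72 (SE 0.12, 95% interval -0.97 to -0.46, adjusted p = 0.00720 from limma). This corresponds to 60.9% of the sham level (95% interval 51.0% to 72.8%). The probe set was brighter than 99.1% of those tested, so its values lay far above the dim end of the array. The call was kept in 8 of 8 fits that each left out 1 array, with a highest adjusted p of 0.0263 from limma. It was lost with the number in the sample descriptions as a block (log2 change -0.70, adjusted p = 0.118 from limma). SAH replicate 2 and Sham replicate 3 share no such number with the other group, so that fit compared only the remaining arrays. The methods state that SAH and Sham hemispheres were typically processed together by day, and whether that number marks the day is not stated.

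The caveolins are the membrane proteins of the pit. Cav1, without which endothelial cells are known to lack caveolae in mice, read 6.95, 7.04, 6.77 and 6.78 in SAH replicates 1 to 4, against 7.83, 8.11, 7.62 and 7.68 in Sham replicates 1 to 4. The SAH arrays were tightly spaced and all lay below the lowest Sham array. The means were 6.89 ± 0.13 after SAH and 7.81 ± 0.22 in Sham (SD, n = 4 each), a log2 change of -0.92 (SE 0.13, 95% interval -1.20 to -0.65, adjusted p = 0.00266 from limma). The SAH level was 52.7% of sham (95% interval 43.5% to 63.8%).

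Cav2, the partner that joins caveolin 1 in mixed oligomers, read 7.61, 8.22, 7.87 and 7.80 in SAH replicates 1 to 4, against 8.74, 9.11, 8.73 and 8.72 in Sham replicates 1 to 4. Replicate 2 was the highest array in each group, and the groups did not overlap. The means were 7.88 ± 0.25 after SAH and 8.82 ± 0.19 in Sham (SD, n = 4 each), a log2 change of -0.95 (SE 0.14, 95% interval -1.26 to -0.63, adjusted p = 0.00489 from limma), or 51.9% of sham. Both caveolins kept their call in 8 of 8 fits without 1 array, with highest adjusted p of 0.0137 for Cav1 and 0.0195 for Cav2 from limma.

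Whether the caveolins fell equally was asked within arrays, as the log2 difference between 2 transcripts relative to its Sham mean, since the levels of different probe sets cannot be compared. The difference Cav1 minus Cav2 lay at 0.35, -0.17, -0.084 and -0.00043 in SAH replicates 1 to 4, against 0.10, 0.013, -0.089 and -0.029 in Sham replicates 1 to 4. The groups overlapped, and the change of Cav1 differed from that of Cav2 by 0.023 (p = 0.886 by a 2-sided exact permutation test over 70 assignments, adjusted p = 0.886 over 3 such differences). SAH replicate 1 alone lay well above 0, and without it the difference was -0.084. A missed threshold does not show that both changed alike.

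The cavins coat the pit from inside. Cavin1, the core coat protein without which caveolae are known not to form in mice, read 6.51, 6.57, 6.58 and 6.52 in SAH replicates 1 to 4, against 6.60, 6.88, 6.58 and 6.62 in Sham replicates 1 to 4. The SAH arrays were nearly equal and lay just below the lowest Sham array, with SAH replicate 3 and Sham replicate 3 at the same rounded value. The log2 change of -0.13 (SE 0.10, 95% interval -0.35 to 0.095, adjusted p = 0.652 from limma) did not pass the test, and its interval reached down to 78.5% of sham.

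Cavin1 changed less than Cav1. The difference Cav1 minus Cavin1 lay at -0.70, -0.67, -0.94 and -0.87 in SAH replicates 1 to 4, against 0.093, 0.086, -0.098 and -0.082 in Sham replicates 1 to 4. The groups did not overlap, with a difference of -0.80 between the changes (p = 0.0286 by a 2-sided exact permutation test, the smallest p that 70 assignments allow, adjusted p = 0.0429 over 3 differences). Leaving out 1 array at a time gave differences of -0.84 to -0.75. Each had p = 0.0286 by the exact permutation test, again the smallest p possible.

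Cavin2, which binds phosphatidylserine and bends the caveolar membrane, read 8.55, 8.97, 8.79 and 8.48 in SAH replicates 1 to 4, against 9.10, 9.31, 9.74 and 9.78 in Sham replicates 1 to 4. The groups did not overlap, but SAH replicate 2 and Sham replicate 1 lay close together. The means were 8.70 ± 0.22 after SAH and 9.48 ± 0.33 in Sham (SD, n = 4 each), a log2 change of -0.79 (SE 0.17, 95% interval -1.16 to -0.41, adjusted p = 0.0310 from limma), or 58.0% of sham. This call held in 2 of 8 fits without 1 array, those without SAH replicate 2 or without Sham replicate 1, and the adjusted p from limma reached 0.0889 in the others.

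Cavin3, the cavin known to bind protein kinase C delta, moved the other way. It read 8.84, 8.54, 8.59 and 8.81 in SAH replicates 1 to 4, against 8.27, 8.22, 7.36 and 7.79 in Sham replicates 1 to 4. All SAH arrays lay above all Sham arrays, and the Sham arrays were widely spread, with Sham replicate 3 lowest. The means were 8.69 ± 0.15 after SAH and 7.91 ± 0.43 in Sham (SD, n = 4 each), a log2 change of 0.79 (SE 0.19, 95% interval 0.38 to 1.20, adjusted p = 0.0466 from limma), or 1.72-fold. The call was the least firm of the 6: only the fit without Sham replicate 1 kept it, and the other 7 fits without 1 array gave adjusted p from limma of up to 0.130.

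**Figure D2:**
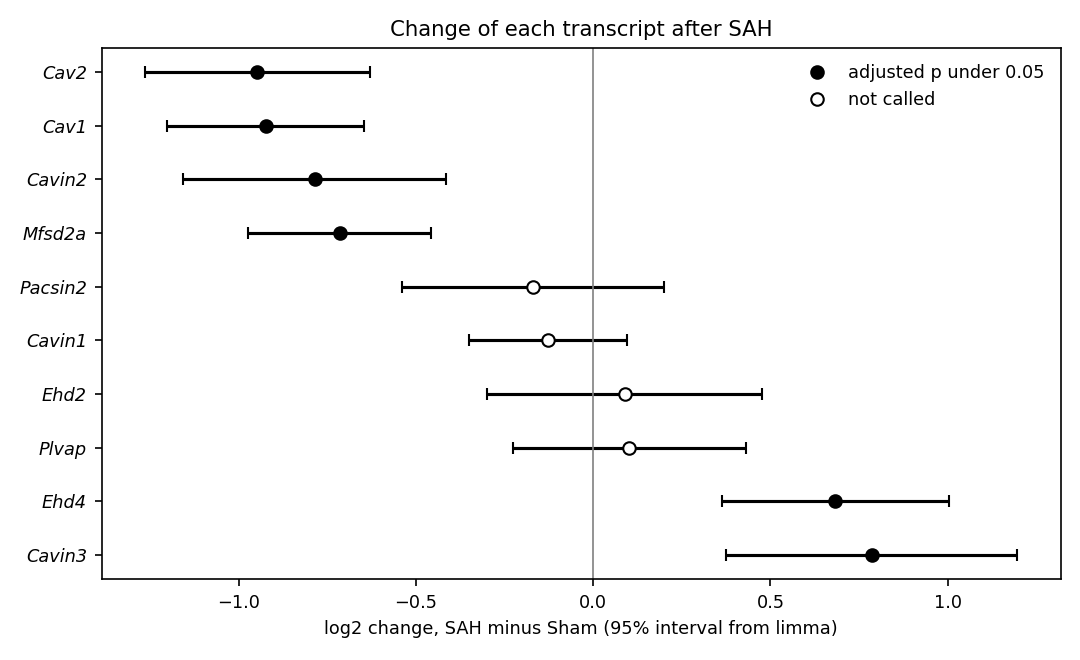
Log2 change, SAH minus Sham, of the 10 transcripts (horizontal axis), with points for the change and bars for limma's 95% interval. Filled points had an adjusted p under 0.05: Cav2, Cav1, Cavin2 and Mfsd2a between -0.95 and -0.72, and Ehd4 and Cavin3 at 0.68 and 0.79, while the open points had intervals that include 0.

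The EHD proteins are ATPases that tubulate membranes. Ehd2 forms a ring at the caveolar neck and holds the pit at the cell surface. Its transcript read 8.44, 8.36, 8.04 and 8.91 in SAH replicates 1 to 4, against 8.28, 8.67, 8.28 and 8.17 in Sham replicates 1 to 4. SAH replicate 3 held the lowest and SAH replicate 4 the highest of all 8 values, so the groups overlapped fully. The log2 change was 0.088 (SE 0.18, 95% interval -0.30 to 0.48, adjusted p = 0.889 from limma), and without SAH replicate 4 it was -0.068.

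Ehd4, a relative of Ehd2 that also works on endosomes, read 6.83, 7.02, 6.51 and 6.97 in SAH replicates 1 to 4, against 6.39, 6.27, 5.88 and 6.05 in Sham replicates 1 to 4. All SAH arrays lay above all Sham arrays, and the narrowest gap was between SAH replicate 3 and Sham replicate 1. The means were 6.83 ± 0.23 after SAH and 6.15 ± 0.22 in Sham (SD, n = 4 each), a log2 change of 0.68 (SE 0.15, 95% interval 0.36 to 1.00, adjusted p = 0.0304 from limma), or 1.61-fold. The call held in 2 of 8 fits without 1 array, those without SAH replicate 3 or without Sham replicate 1, and the adjusted p from limma reached 0.0822 in the others.

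Pacsin2, whose F-BAR domain senses and makes the curve of the neck, read 5.94, 5.92, 6.23 and 6.58 in SAH replicates 1 to 4, against 6.47, 6.24, 6.60 and 6.05 in Sham replicates 1 to 4. The groups overlapped, with the 2 lowest values in SAH and SAH replicate 4 close to the highest Sham array. The log2 change was -0.17 (SE 0.17, 95% interval -0.54 to 0.20, adjusted p = 0.736 from limma).

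Plvap, the diaphragm protein, was the dimmest member, and its mean exceeded that of 57.7% of the probe sets tested. It read 4.91, 5.08, 5.31 and 4.76 in SAH replicates 1 to 4, against 5.13, 5.08, 4.62 and 4.82 in Sham replicates 1 to 4. The groups overlapped, and the log2 change of 0.10 (SE 0.15, 95% interval -0.23 to 0.43, adjusted p = 0.838 from limma) leaves room for a level up to 135% of sham. A dim probe set may understate a change.

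Plvap and Mfsd2a are often read as opposite marks of the barrier, so their changes were compared. The difference Plvap minus Mfsd2a lay at 0.69, 0.87, 1.35 and 0.36 in SAH replicates 1 to 4, against 0.25, 0.039, -0.36 and 0.067 in Sham replicates 1 to 4. All SAH arrays lay above all Sham arrays, by 0.82 in the mean (p = 0.0286 by a 2-sided exact permutation test, the smallest possible, adjusted p = 0.0429 over 3 differences). The change of Plvap itself was 0.10 and that of Mfsd2a -0.72, so the difference rests mainly on Mfsd2a and does not show opposite changes. Without any 1 Sham array the exact permutation p was 0.0571.

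**Figure D3:**
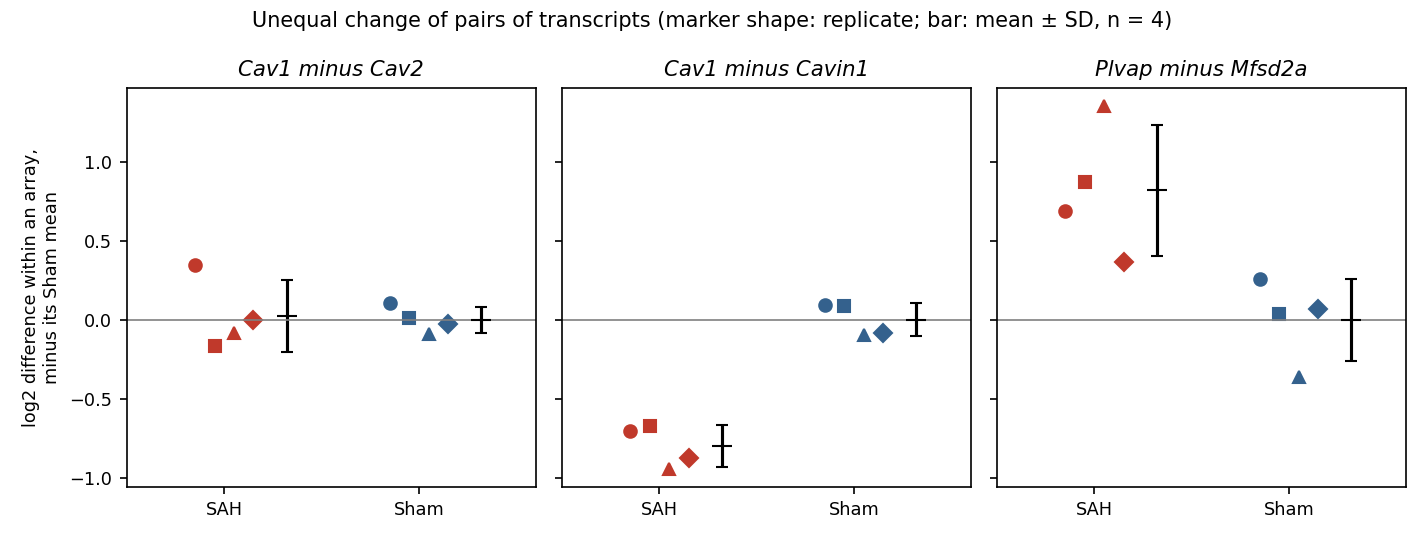
Log2 difference between 2 transcripts within each array, minus the Sham mean of that difference (vertical axis), for SAH in red left of Sham in blue. Marker shapes give the replicate and bars the mean ± SD (n = 4). Cav1 minus Cav2 overlaps between groups, Cav1 minus Cavin1 lies between -0.94 and -0.67 after SAH, and Plvap minus Mfsd2a lies between 0.36 and 1.35 after SAH.

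Among themselves the members fell into courses that can be described by the root mean square difference over the 8 arrays, after each transcript was centred on its own mean. It was smallest between Cav1 and Cav2 (0.15), followed by Cav1 and Mfsd2a (0.20) and by Cavin3 and Ehd4 (0.21). It was largest between Cavin2 and Cavin3 (0.93). With 8 arrays in 2 groups, such values follow mainly the change between groups. Spread within the Sham group was not the same for all members. Sham replicate 2 was the highest Sham array for 5 members (Mfsd2a, Cav1, Cav2, Cavin1 and Ehd2), while for Cavin2, Cavin3 and Ehd4 Sham replicates 1 and 2 lay nearer to the SAH arrays than Sham replicates 3 and 4 did. The medians of the arrays were 4.23 to 4.30. The normalization makes them nearly equal, so they cannot show whether Sham replicate 2 stood apart as a whole.

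**Figure D4:**
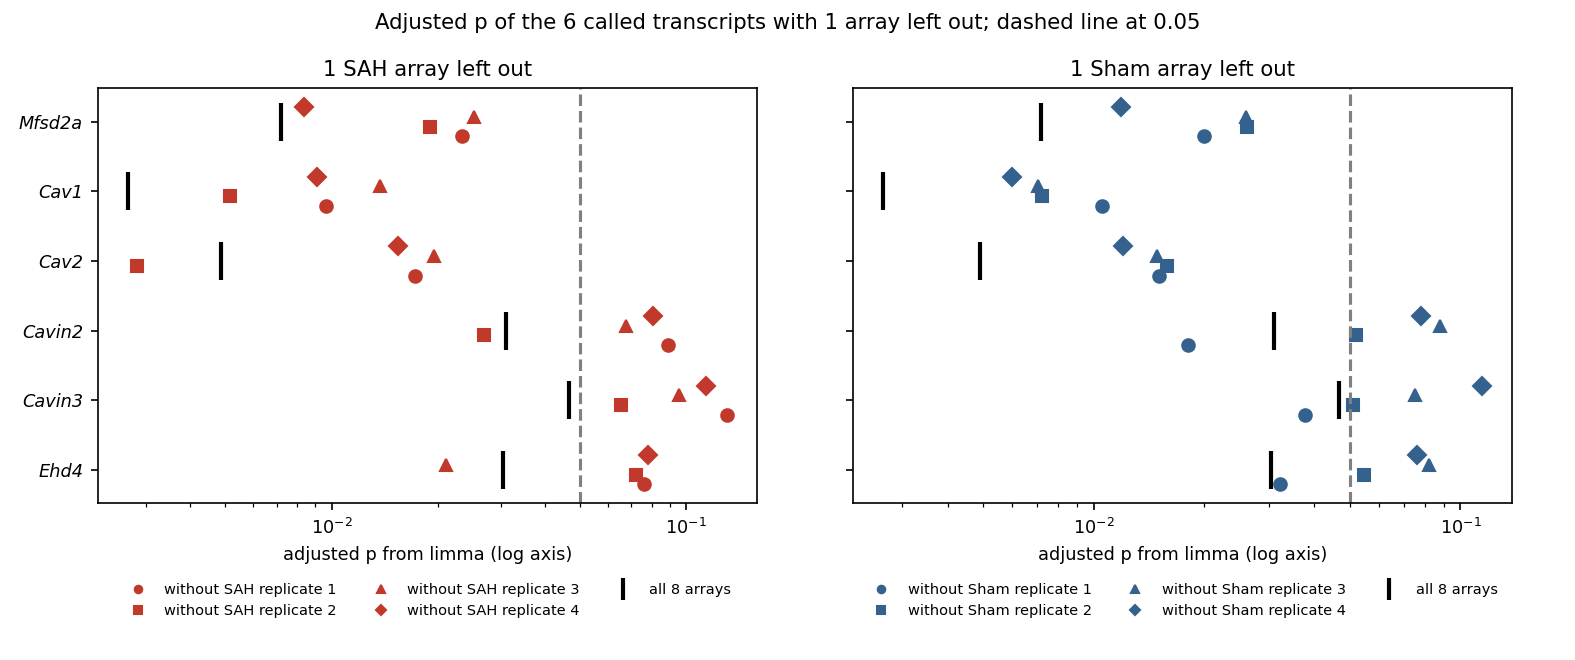
Adjusted p from limma (horizontal log axis) of the 6 called transcripts when 1 SAH array (left) or 1 Sham array (right) was left out, with the value from all 8 arrays as a vertical bar and the threshold of 0.05 dashed. Mfsd2a, Cav1 and Cav2 stay left of the line in all 8 fits, whereas Cavin2 and Ehd4 do so in 2 and Cavin3 in 1.

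Among 12161 genes compared, the courses nearest to Mfsd2a over the 8 arrays were those of Gtf2i (root mean square difference 0.069, log2 change -0.79), Nfia (0.098 and -0.55), Clic5 (0.0995 and -0.77), Cpt1a (0.11 and -0.62) and Hadh (0.11 and -0.64). Gtf2i and Nfia encode transcription factors, Clic5 a chloride channel protein, and Cpt1a and Hadh enzymes of fatty acid oxidation. The courses nearest to Cav1 were those of Esyt2 (0.073 and -0.90), Agrn (0.091 and -0.85), Clstn1 (0.12 and -0.89), Slc36a1 (0.13 and -0.80) and Snord123 (0.14 and -0.73). Esyt2 encodes a lipid transfer protein at contacts of the endoplasmic reticulum with the plasma membrane, Agrn the basement membrane proteoglycan agrin, Clstn1 calsyntenin 1, Slc36a1 a lysosomal amino acid transporter, and Snord123 a small nucleolar RNA. All 10 were called lower by limma, with adjusted p of 0.00104 to 0.0375. They were picked for closeness to Mfsd2a or Cav1, both lower in the same arrays, so lower values follow from the choice. Snord123 kept its call in 1 of 8 fits without 1 array, with adjusted p from limma of up to 0.108, and Clic5 kept its call in 6, losing it without Sham replicate 2 or 3.

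The vesicle route was set in context with 6 lists of related genes, of whose 90 genes 85 were measured. Of these 85, limma called 2 higher and 5 lower after SAH, against 1.90% called higher and 1.28% called lower of all probe sets tested. The share called higher was thus near that over all probe sets. The 5 lower genes all averaged above log2 6, and of the 6909 probe sets above that level limma called 356 lower, a larger share than over all probe sets. The 5 lower calls are therefore not read as an excess. The median log2 change of the 85 was 0.0045, against -0.015 over all probe sets tested. The called genes were single members of their lists, except for the receptors.

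Of 12 other caveola and lipid raft genes, Ehd1 was higher and none was lower (median log2 change 0.083). Ehd1, an EHD protein of endosomal recycling, read 8.52, 8.05, 8.33 and 8.88 in SAH replicates 1 to 4, against 7.49, 7.48, 7.43 and 7.50 in Sham replicates 1 to 4. The Sham arrays were almost equal and the SAH arrays spread above them, with a log2 change of 0.98 (SE 0.15, 95% interval 0.64 to 1.32, adjusted p = 0.00603 from limma) that kept its call in 8 of 8 fits without 1 array. Thus Ehd1 and Ehd4 were higher, whereas Ehd2 (0.088) and Ehd3 (0.25, adjusted p = 0.481 from limma) did not pass. Flot1, a raft scaffold, had a change of 0.27 (adjusted p = 0.524 from limma) and did not pass either.

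Of 13 dynamin and vesicle fusion genes, Dnm3 was lower and none was higher (median 0.058). Dnm3 encodes a dynamin, a GTPase that pinches vesicles off, and averaged 8.22 ± 0.15 after SAH and 8.89 ± 0.25 in Sham (SD, n = 4 each). Its log2 change of -0.67 (SE 0.14, 95% interval -0.96 to -0.37, adjusted p = 0.0244 from limma) lost the call without SAH replicate 1, SAH replicate 3 or Sham replicate 1. Of 15 clathrin genes measured of 16, Hip1, an adaptor that links clathrin to actin, was lower (log2 change -0.62, SE 0.12, 95% interval -0.88 to -0.36, adjusted p = 0.0159 from limma) and none was higher (median 0.025). Of the 8 fits without 1 array, that without SAH replicate 3 lost the call, at an adjusted p of 0.0501 from limma. With all 41345 probe sets the adjusted p from limma was 0.0583.

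None of the 14 Rab and endosome sorting genes measured of 15 was called by limma, and 2 had an unadjusted p under 0.05 (median -0.025). The methods' t-test called none of them either. The largest changes were those of Rab4a (-0.45, adjusted p = 0.128 from limma), a GTPase of fast recycling, Snx2 (-0.28), Exoc2 (-0.21) and Rab11a (0.19). Their groups overlapped.

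Of 15 receptors of transcytosis measured of 16, 3 were lower and none was higher (median -0.17). Tfrc, the transferrin receptor, read 8.42, 9.38, 8.28 and 8.71 in SAH replicates 1 to 4, against 9.91, 10.46, 10.56 and 9.89 in Sham replicates 1 to 4. The groups did not overlap, and the log2 change of -1.51 (SE 0.24, 95% interval -2.03 to -0.99, adjusted p = 0.00572 from limma), or 35.2% of sham, kept its call in 8 of 8 fits without 1 array. Fcgrt, the neonatal Fc receptor that moves IgG, had a log2 change of -0.55 (SE 0.12, 95% interval -0.81 to -0.29, adjusted p = 0.0319 from limma), and its call held in 2 of the 8 fits. Bsg, a glycoprotein of BBB endothelium that escorts monocarboxylate transporters, had a log2 change of -0.41 (SE 0.094, 95% interval -0.62 to -0.20, adjusted p = 0.0391 from limma), and its call was lost in all 8 fits.

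Of 16 lipid carrier and Mfsd2a regulation genes measured of 18, Fabp4 was higher and none was lower (median 0.056). Fabp4, a fatty acid binding protein of capillary endothelium, read 6.33, 6.43, 5.57 and 5.69 in SAH replicates 1 to 4, against 4.07, 5.07, 4.58 and 4.27 in Sham replicates 1 to 4. All SAH arrays lay above all Sham arrays, with a log2 change of 1.51 (SE 0.24, 95% interval 0.98 to 2.04, adjusted p = 0.00643 from limma) kept in 8 of 8 fits without 1 array. The Sham mean of 4.50 was near the median of the table (4.26), and the change fell to 1.05 in the lowest alternative. Srebf1, a transcription factor of lipid synthesis, had a change of 0.31 (adjusted p = 0.291 from limma) and did not pass. Mfsd2b, the related sphingosine-1-phosphate exporter of blood cells, had -0.063 (adjusted p = 0.887 from limma).

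**Figure D5:**
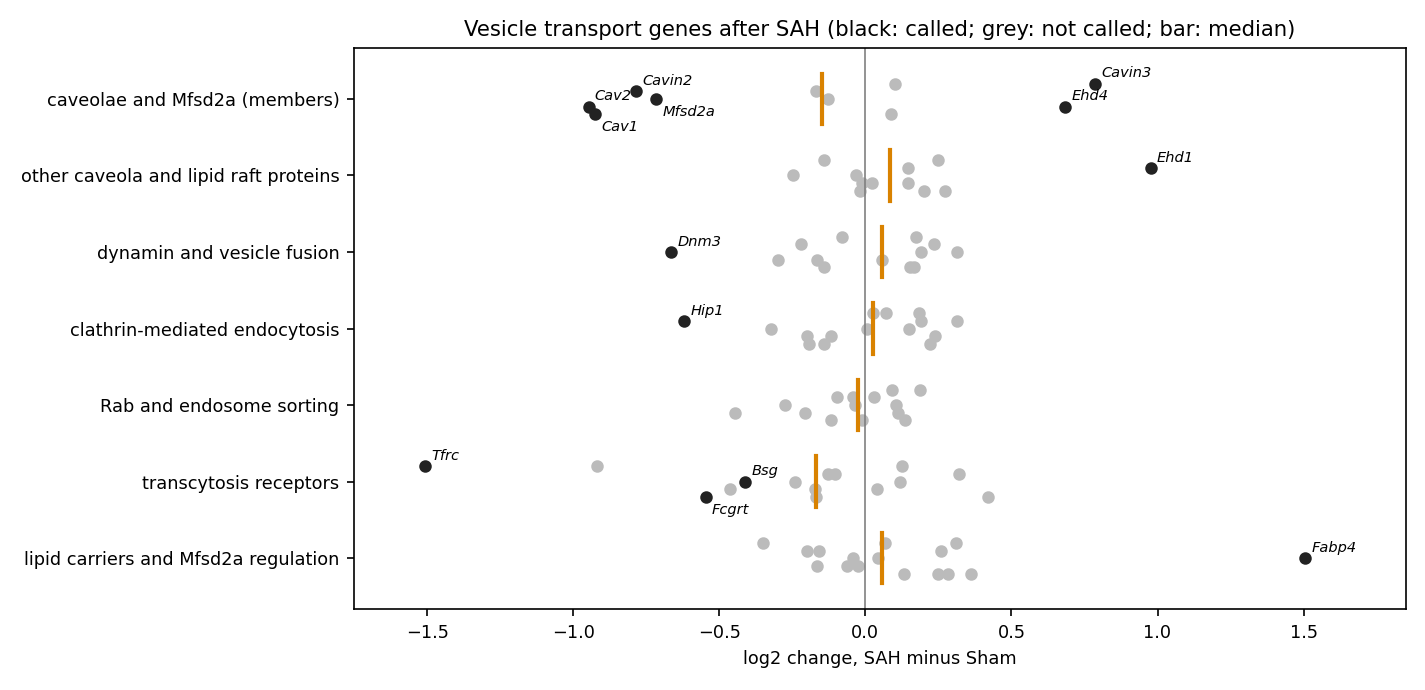
Log2 change, SAH minus Sham (horizontal axis), of the members (top) and of the genes of 6 related lists, with black points for adjusted p under 0.05 and vertical bars for list medians. Tfrc at -1.51 and Fabp4 at 1.51 lie farthest out, and all 6 list medians lie between -0.17 and 0.083.

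Markers of the sorted cells and of other cells were read beside these changes, as 8 lists whose summed linear intensity is given on the log2 scale. The 12 endothelial markers summed to 14.15 to 14.28 in SAH arrays and 14.18 to 14.23 in Sham arrays, with Tek and Kdr called lower by limma and none called higher. Of the 12, 5 had an unadjusted p under 0.05 from limma: Tek, Kdr and Tie1 (-0.31) were lower, and Pecam1 (0.37) and Cdh5 (0.22) were higher. The median log2 change of this list was -0.020. Of 13 mural cell markers 1 was higher (12.61 to 12.91 in SAH, 12.55 to 12.73 in Sham), and of 8 fibroblast markers 1 was higher (7.63 to 8.04 in SAH, 7.46 to 7.74 in Sham). Both cell types are known to use caveolin 1 and the cavins. The 13 microglia and macrophage markers summed to 9.79 to 10.37 in SAH and 9.22 to 9.58 in Sham, without overlap. Of these, 4 were called higher and 9 had an unadjusted p under 0.05 from limma. Their log2 changes ran from 0.029 to 1.46, with a median of 0.67, against -0.015 over all probe sets tested. The 8 blood cell markers summed to 7.54 to 8.68 in SAH and 7.30 to 7.61 in Sham, with 2 higher. Astrocyte markers (9.01 to 9.65 in SAH, 8.75 to 9.18 in Sham) and choroid plexus and ependymal markers (10.57 to 11.62 in SAH, 10.10 to 10.88 in Sham) overlapped with none called, and 9 neuron and oligodendrocyte markers summed to 7.97 to 8.22 in SAH and 8.52 to 8.999 in Sham. Of these 9, Stmn2 was called lower (mean 6.62 in SAH, 8.05 in Sham) and the other 8 were not called, with a list median of -0.015. The part of these other cells in the changes of the members was not tested.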

How the data were processed

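The deposited values were log2 intensities, normalized by the authors with robust multi-array average (RMA) using oligo in R 3.2.2, for 41345 probe sets on 8 arrays. Raw intensities were not used here. Probe sets were named from the platform annotation, and those with 1 symbol equal to a member were kept. SAH and Sham (n = 4 each) were compared with limma 3.58.1 in R 4.3.3 over the 25341 probe sets with a symbol, with p-values adjusted by Benjamini-Hochberg (threshold 0.05). No replicate block was used, since the labels state no pairing, although the methods describe processing by day. Differences between the changes of 2 members were tested by exact permutation over 70 assignments. For other genes, the probe set with the highest mean was used. Most genes were named by rule: all members, every called gene of a list or, with none called, its 4 largest changes, and the 5 courses nearest to Mfsd2a and to Cav1 among probe sets above the median of the table (4.26). The uncalled Ehd3, Flot1, Srebf1 and Mfsd2b were named outside this rule. Members and lists were chosen with earlier results of these data known. The number of arrays limits the precision. Alternatives were other fits and filters, other normalizations, 16 added to linear intensities, replicate blocks, and each array left out. The authors' raw data, PCR and protein experiments were not analysed here.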

Additional observations from a re-analysis of the deposited data

Results flagged for a closer look

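Within the Sham group, Sham replicate 2 stood apart from the other 3 arrays for Cav2 and Cavin1. Its Cav2 value was 9.11, and its gap to the nearest Sham array was 0.950 of the range of the group, above Dixon's critical value for 4 samples. Its Cavin1 value was 6.88, with a gap of 0.872 of the range. These were 2 of 20 groups examined (10 members in 2 conditions), and chance gives about 1 such group in 20. Cav2 kept its call without Sham replicate 2.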

How the results depend on the processing

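The 4 lower and 2 higher members, and the 5 lower and 2 higher genes of the related lists, were counted again under each alternative. The methods' t-test called 86 probe sets and gave 0 lower and 0 higher members and 0 lower and 0 higher list genes, with adjusted p of 0.0585 to 0.234 for the 6 called members. Testing all 41345 probe sets gave 0 higher members and 1 lower list gene, and 353 calls over the table. Median centring, cyclic loess and 16 added to each linear intensity gave 1 higher member each, and with 16 added Cavin2 lost its call too (adjusted p = 0.0594), which left 3 lower members. With probe sets above log2 6 the lists had 1 higher gene, since Fabp4 was no longer tested. SAH and Sham arrays with the same number had correlations of -0.06 to 0.03 between their deviations from the group means. With so few arrays, this cannot show whether they were processed together. A replicate block by title number gave 2 lower list genes. A replicate block by label number gave 2 lower members (Mfsd2a and Cavin2 lost their calls) and 0 higher members, 1 lower and 1 higher list gene, 275 calls over the table against 807, and changes of 0.00052 for Pacsin2 and -0.016 for Plvap. SAH replicate 2 and Sham replicate 3 drop out of its comparison, since no array of the other group has their number. Without both arrays of label number 6, chosen after seeing the data, there were 0 higher members and 2 lower list genes, and Ehd2 had -0.13. With 1 array left out there were 3 to 4 lower and 0 to 2 higher members and 1 to 5 lower list genes, Ehd2 ranged over -0.068 (without SAH replicate 4) to 0.22, Cav1 minus Cav2 over -0.084 (without SAH replicate 1) to 0.087, with -0.0066 without Sham replicate 3, and Plvap minus Mfsd2a over 0.64 to 0.97. The causes were not tested.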
